A study of Mus musculus with 116 samples.

Results

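A set of 10 genes that separate epithelial from mesenchymal cells was followed through every library of a mouse study of 2 cell lines. They were chosen by name and comprise the keratins Krt7, Krt8, Krt18 and Krt19, the cell adhesion genes Cdh1 and Epcam, and the mesenchymal genes Vim, Cdh2, Fn1 and Zeb1. They are 10 of the 40202 gene symbols in the count files, and all 10 were found there. C10 is a line labelled as alveolar type II epithelial cells of the lung, and SVEC is a line labelled as endothelial cells, the cells that line blood vessels. Both lines were grown under standard culture without treatment, and the labels give no genotype or clone for either. An input series held C10 libraries made from 1 cell (n = 8), 3 cells (n = 6) or 10 cells (n = 6), and a second set held 48 C10 and 48 SVEC libraries, for which the protocol names single cells and which are called single cells below. Of the C10 single cells, 46 remained after 2 with under 1000 counts were dropped.

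Keratins are the intermediate filament proteins of epithelial cells. They polymerise as pairs of an acidic type I protein, such as those of Krt18 and Krt19, and a basic type II protein, such as those of Krt7 and Krt8, and simple epithelia of the lung are known for all of them. Cdh1 codes for E-cadherin, which joins neighbouring epithelial cells, and Epcam for an adhesion molecule of the epithelial surface. Vim codes for vimentin, the intermediate filament protein of mesenchymal and endothelial cells, Cdh2 for N-cadherin, Fn1 for the matrix protein fibronectin and Zeb1 for a transcription factor that represses E-cadherin. A shift from the first set of genes to the second is known as the epithelial to mesenchymal transition, and cells grown in culture can carry parts of both sets.

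In both lines the mesenchymal genes held nearly all counts of the set. Levels are counts per 1000000 counts on genes (CPM). The CPM of Vim, Cdh2, Fn1 and Zeb1, summed, was above the sum of the 6 epithelial genes in all 46 C10 single cells, in all 48 SVEC single cells and in all 20 libraries of the input series. In C10 single cells the mesenchymal sum had a median of 2646 CPM, with a lowest value of 1183 and a highest of 16147. The epithelial sum there had a median of 0.648 CPM and a highest value of 239 CPM. Of the 46 libraries, 17 had no count of any epithelial gene of the set, 25 had counts of 1 and 4 had counts of 2 of them. In SVEC, 47 of 48 libraries had none, and the mesenchymal sum had a median of 1511 CPM, between 73.7 and 5676. These levels go against an epithelial marker profile in the libraries labelled as alveolar epithelial cells, which are called by the name of their line, C10, throughout.

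**Figure D1:**
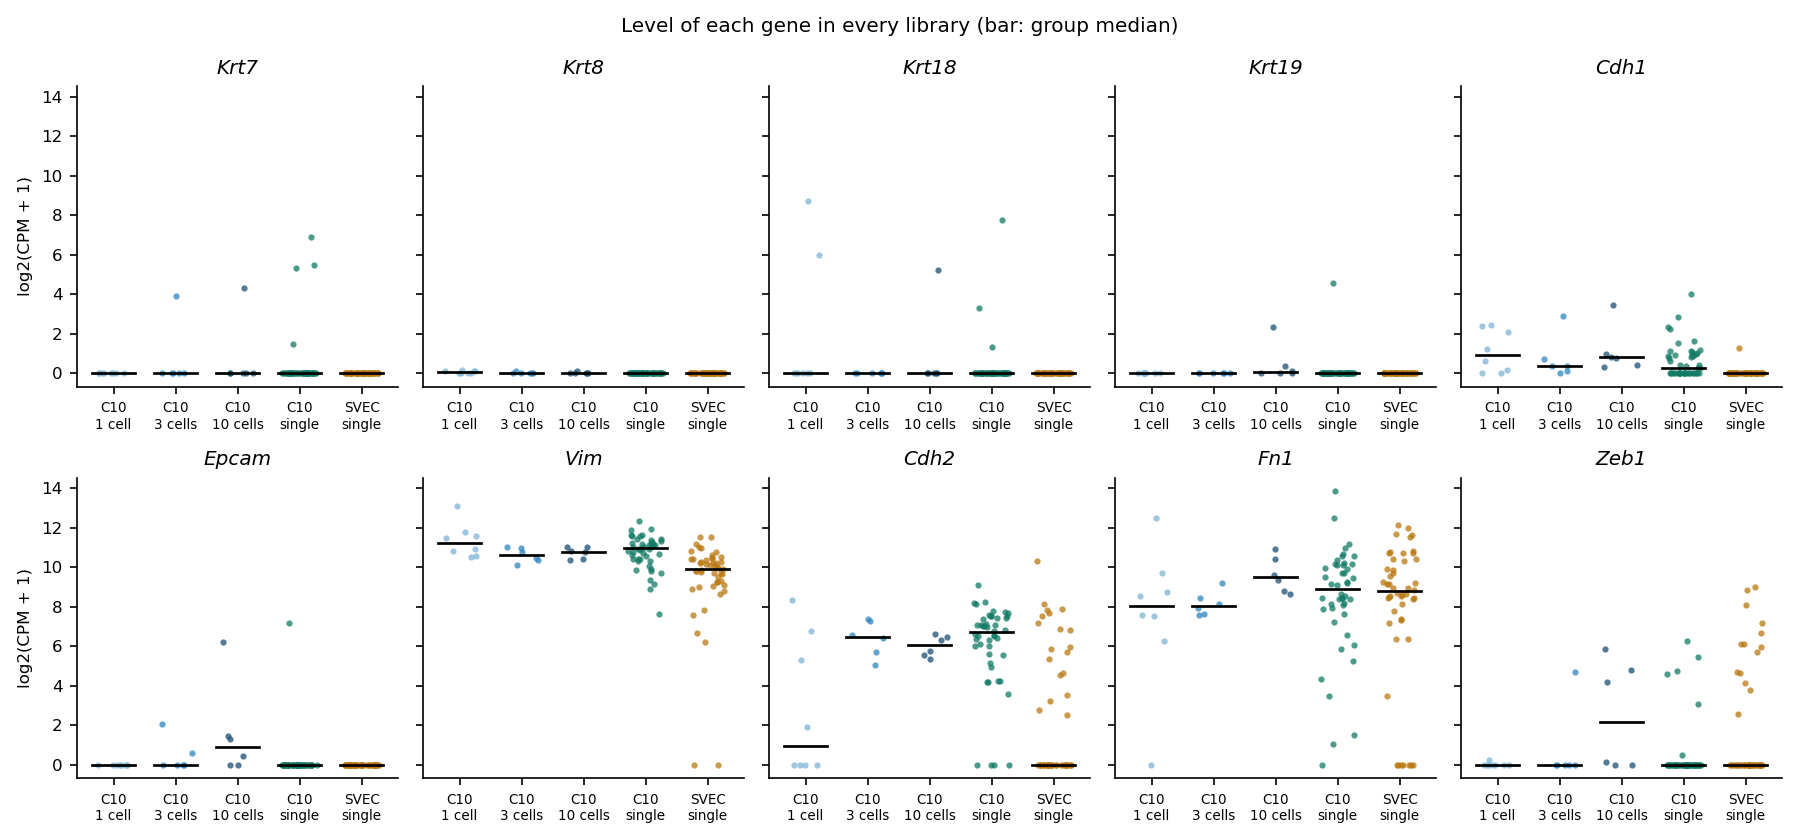
Level of each gene as log2(CPM + 1) in every kept library, with 1 point per library and a black bar at the group median, for the 3 groups of the C10 input series and the C10 and SVEC single cells. Vim lies near the top in nearly all libraries, Fn1 and Cdh2 spread widely, and the keratins and Epcam lie at 0 in all but a few C10 libraries.

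The depth of a library sets what a single count is worth. Libraries of the input series held 430798 to 15385625 counts, C10 single cells 83188 to 5911755 and SVEC single cells 5122 to 2831907. One count was worth a median of 0.532 CPM in C10 single cells and 2.32 CPM in SVEC. Replicate 1 of the 1-cell libraries stood apart, with 538 genes detected and 95.1% of its reads not aligned. Some results that rest on it are given with and without it, and others only with it. Of 16 alveolar epithelial markers, 8 had counts in the single cells of each line. Sftpc and the other 3 surfactant protein genes on the list, and the lung factor Nkx2-1, were at 0 in all single cells, while Sftpb, Sftpd and Nkx2-1 had counts in 1 of 6 libraries of 3 cells each. Other type II cell markers had counts in C10 single cells, among them Etv5 in 24 of 46, Abca3 in 14 and Lamp3 in 10. The summed alveolar level had a median of 71.9 CPM in C10 (1.76 to 345) and 15.9 CPM in SVEC (0 to 1208). Of 18 endothelial markers, 8 had counts in SVEC and 6 in C10, and the vessel genes Kdr, Tie1 and Vwf were at 0 in the single cells of both. The summed endothelial level had a highest value of 138 CPM in SVEC and 48.3 CPM in C10. Of 8 fibroblast markers 6 had counts in each line, at a summed median of 2392 CPM in C10 (476 to 15368) and 1251 CPM in SVEC (0 to 11331), while Lum and Thy1 were at 0. Of 8 immune markers, 5 had counts in C10 and 3 in SVEC, and Ptprc, the leukocyte common antigen gene, was at 0 in both.

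Krt8, the type II keratin of simple epithelia, had no count in any of the 46 C10 single cells or the 48 SVEC cells. Taking 3 libraries as the limit that a count of 0 allows, a share of up to 6.52% of C10 and 6.25% of SVEC libraries with a count remains possible, and the Clopper-Pearson 95% upper limits are 7.71% and 7.40%. In the input series Krt8 had exactly 1 count in 4 of 8 libraries of 1 cell, in 1 of 6 libraries of 3 cells and in 1 of 6 libraries of 10 cells. Its highest level anywhere was therefore 0.120 CPM, a single read in replicate 9 of the 1-cell libraries. In the longest transcript, 8.51% of all stretches of 150 bases, the read length, also occur in the pseudogene Krt8-ps, which has no entry of its own in the files. The transcript of Krt8-ps matches that of Krt8, of 1958 bases, at best at 98.6% identity, and the longest alignment spans 941 bases. Whether reads of Krt8 were lost to the pseudogene was not tested.

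Krt18, the usual partner of Krt8, had counts in a few libraries, over a wide range of levels, and none in the rest. Replicate 2 of the 1-cell libraries held 6499 counts (422 CPM) and replicate 6 held 863 counts (61.8 CPM), while the other 6 held none. None of the 3-cell libraries had a count, and 1 of the 10-cell libraries, replicate 5, held 486 counts (36.0 CPM). Among C10 single cells replicate 23 held 94 counts (216 CPM), replicate 38 held 21 and replicate 41 held 3. All 48 SVEC libraries were at 0. The libraries rich in Krt18 were not rich in Krt8: replicates 2 and 6 of the 1-cell group and replicate 5 of the 10-cell group had 1 count of Krt8 each, and the 3 single cells had none. The transcripts of the pseudogenes Gm5200 and Gm17847 match that of Krt18 at best at 90.5% and 86.5% identity and have no entry of their own in the files, and no stretch of 150 bases is shared exactly with another gene.

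Krt7 and Krt19 showed the same pattern of few libraries. Krt7 had counts in 4 of 46 C10 single cells, at 118 CPM in replicate 21, 43.4 in replicate 46, 38.7 in replicate 39 and 1.79 CPM, a single count, in replicate 4. Among the inputs it appeared in 1 library of 3 cells (replicate 6, 13.8 CPM) and 1 library of 10 cells (replicate 9, 18.7 CPM), and in no library of 1 cell. Krt19 had 10 counts (23.0 CPM) in replicate 23 of the C10 single cells, the library with the most Krt18, and none in the other 45. In the 10-cell libraries it had 34 counts in replicate 1, 4 in replicate 5 and 1 in replicate 9, with 0 in the libraries of 1 and 3 cells. Neither gene had a count in SVEC. Krt7 shares exon bases with Gm671 on the opposite strand, which had 16 counts in all C10 single cells together against 448 for Krt7.

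Over the whole keratin family, 54 gene symbols of the form Krt with a number were in the files, and 34 of them had no count in any of the 114 kept libraries. Krt10, a type I keratin known from differentiated skin cells, was the one keratin that reached 25% of the single cells of either line. In C10 it had counts in 32 of 46 libraries a median of 51.3 CPM and a highest value of 291 CPM. In SVEC it had counts in 16 of 48 libraries a median of 0 and a highest value of 396 CPM. It overlaps the antisense gene Gm11940 in the annotation, and the strand setting of the counting is not given in the sources used here. The edgeR quasi-likelihood test, adjusted over all genes by Benjamini-Hochberg, gave Krt10 a log2 fold change of 0.84 with an adjusted p of 0.471, while limma on log2(CPM + 1) gave a difference of 2.17 and an adjusted p of 0.00650. All 6 libraries of 3 cells and all 6 of 10 cells held Krt10, against 2 of 8 libraries of 1 cell. In the input series Krt39 had counts in 2 of 8 libraries of 1 cell, Krt80 in 2 of 6 and Krt78 in 2 of 6 libraries of 3 cells, and Krt78 in 3 of 6 libraries of 10 cells.

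Epcam had counts in 1 of 46 C10 single cells, replicate 9, with 21 counts in a library of 147254, or 143 CPM. It was absent from all 48 SVEC libraries and from all 8 libraries of 1 cell. Of the 3-cell libraries, replicate 1 held 22 counts (3.19 CPM) and replicate 6 held 7. Of the 10-cell libraries, replicate 6 held 748 counts (73.4 CPM), replicate 2 held 22, replicate 10 held 14 and replicate 1 held 3, and 2 libraries held none. The 1 library with 748 counts thus carried 95.04% of the Epcam counts of its group.

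Cdh1 was the epithelial gene seen in most C10 libraries, always at low level. It had counts in 24 of 46 C10 single cells, with a median of 1.5 counts among those 24 and a highest value of 10, and its level was 1.01 ± 2.45 CPM (SD, n = 46) with a median of 0.204 and a highest value of 15.1 CPM. In SVEC it had 1 count in 1 of 48 libraries. The input series had Cdh1 in 6 of 8 libraries of 1 cell, 5 of 6 of 3 cells and 6 of 6 of 10 cells. Levels were 0 to 4.48 CPM with 1 cell (median 0.913), 0 to 6.49 CPM with 3 cells (median 0.272) and 0.222 to 10.0 CPM with 10 cells (median 0.756). The 3 ranges overlapped, and replicate 5 of the 3-cell and replicate 6 of the 10-cell libraries were the high ones. After thinning each library to 100000 counts, 3 of 45 C10 libraries and 0 of 42 SVEC libraries still had a count.

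**Figure D2:**
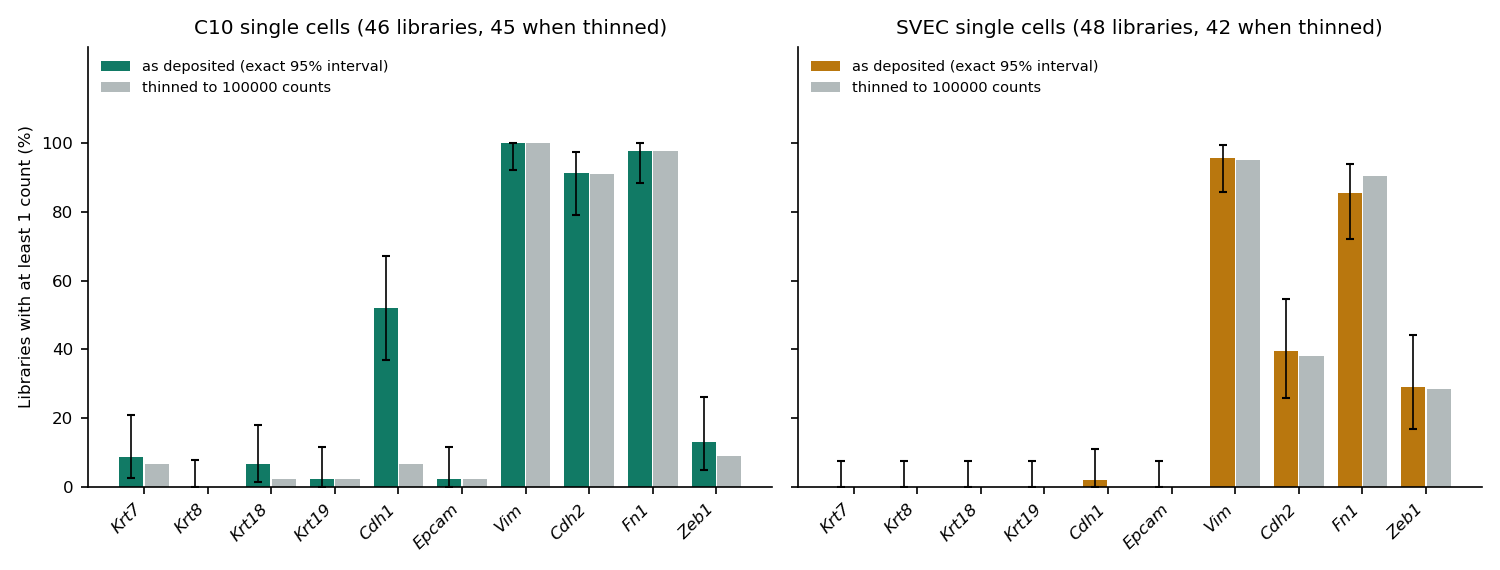
Share of single-cell libraries with at least 1 count of each gene, in C10 on the left and SVEC on the right, as deposited (coloured bars, with exact 95% binomial intervals for counting error) and after thinning to 100000 counts (grey bars). Thinning took Cdh1 in C10 from 52.2% to 6.67% of libraries, while Vim, Cdh2 and Fn1 stayed within their intervals in both lines.

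Promoter sequence was looked at because Zeb1 and the Snail factors are known to bind the E-box CAGGTG, which reads CACCTG on the other strand, in promoters of epithelial genes. RefSeq promoters (assembly GRCm38.p6, from 250 bases before to 50 after the start site) were read for 5 of the genes. Vim was the only mesenchymal gene among them. Those of Cdh2 and Zeb1 were left out, and Krt19, Cdh1 and Fn1 had no entry. The letters occurred in all 4 epithelial promoters read, those of Krt7, Krt8, Krt18 and Epcam, and not in that of Vim. Of 32851 promoters of that length, 20.2% hold them on either strand. Only the bases around each match and before the start site are shown here, on the strand of the gene, with the E-box in capitals. These stretches are shown because they stand before the genes that were at 0 in most libraries, and a match of letters is not a site of binding.
Krt7, chr15:101412332-101412391, plus strand, E-box at -44 from the start site: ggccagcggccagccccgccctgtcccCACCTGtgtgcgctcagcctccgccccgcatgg
Krt8, chr15:102004421-102004480, minus strand, E-box at -111: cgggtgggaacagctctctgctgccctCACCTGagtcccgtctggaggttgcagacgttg
Krt18, chr15:102027975-102028034, plus strand, E-box at -214: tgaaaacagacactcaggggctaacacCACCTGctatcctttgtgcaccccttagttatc
Epcam, chr17:87635765-87635824, plus strand, E-box at -187: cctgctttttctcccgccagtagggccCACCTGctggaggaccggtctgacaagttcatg
Epcam, chr17:87635933-87635978, plus strand, E-box at -19: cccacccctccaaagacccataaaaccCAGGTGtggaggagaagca

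Vim was the most abundant gene of the set in each group. In C10 single cells its level was 1990 ± 977 CPM (SD, n = 46), from 199.98 to 5217 with a median of 1987, and every library had counts. In SVEC it was 1047 ± 679 CPM (SD, n = 48), from 0 to 3004 with a median of 975, and replicates 7 and 27, with 473124 and 200062 counts in all, had none of Vim. The ranges of the lines overlapped. Of the C10 inputs, the 3-cell libraries held 1106 to 2052 CPM and the 10-cell libraries 1311 to 2110 CPM. The 1-cell libraries held 1442 to 3464 CPM apart from replicate 1, which held 8786.

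Fn1 came next, and in single cells it varied more than Vim. C10 single cells held 1049 ± 2269 CPM (SD, n = 46), with a median of 475, and values from 0 in replicate 10 to 14750 CPM in replicate 24. SVEC cells held 878 ± 1083 CPM (SD, n = 48), with a median of 438, from 0 in 7 libraries to 4521 CPM. The coefficient of variation over libraries was 2.16 for Fn1 and 0.491 for Vim in C10, and 1.23 and 0.649 in SVEC. Among the C10 inputs, replicate 14 of the 1-cell libraries held 5747.5 CPM of Fn1 against 0 to 841 in the other 7. The 3-cell libraries held 187 to 585 CPM and the 10-cell libraries 393 to 1940 CPM, ranges that overlap.

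Cdh2 separated the lines by the share of libraries that held it rather than by its highest levels. It had counts in 42 of 46 C10 single cells, or 91.3% (Clopper-Pearson 95% interval 79.2% to 97.6%), and in 19 of 48 SVEC cells, or 39.6% (25.8% to 54.7%). Thinned to 100000 counts, the shares were 91.1% of 45 and 38.1% of 42 libraries. C10 levels had a median of 103 CPM and a highest value of 550 CPM. SVEC levels had a median of 0 and a highest value of 1256 CPM, above every C10 library. In the input series the libraries of 1 cell held 320, 110, 38.2 and 2.72 CPM in 4 libraries and 0 in the other 4, while all libraries of 3 cells (31.5 to 166 CPM) and 10 cells (39.2 to 95.9 CPM) had Cdh2.

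Zeb1 was sparse in both lines and higher where present in SVEC. It had counts in 6 of 46 C10 single cells, from 0.416 to 77.0 CPM with a median of 24.2 among the 6. In SVEC it had counts in 14 of 48 libraries, from 5.02 to 510 CPM with a median of 64.6 among the 14. All 6 C10 libraries with Zeb1 also had Cdh2, and 3 of them had Cdh1. In SVEC 9 of the 14 libraries with Zeb1 had Cdh2. In the input series Zeb1 had 2 counts in 1 library of 1 cell, 344 counts in 1 library of 3 cells (24.5 CPM) and 831, 367, 163 and 1 counts in 4 libraries of 10 cells. Zeb1 shares exon bases with Gm10125 on the opposite strand, which had no count in any single cell. In the input series Gm10125 had 83 counts in 3 of 8 libraries of 1 cell. It had 4 counts in 3 of 6 libraries of 3 cells and 52 in 4 of 6 libraries of 10 cells.

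Compared per kilobase of annotated exon, Vim was above Fn1 and Fn1 above the other 2 mesenchymal genes by the median in both lines. In C10 single cells the median was 419 CPM per kb for Vim, 40.7 for Fn1 and 12.8 for Cdh2, and 0 for Zeb1. In SVEC it was 206 CPM per kb for Vim and 37.5 for Fn1, with Cdh2 and Zeb1 at 0. Within single libraries, Vim was above Fn1 per kb in 43 of 46 C10 and 42 of 48 SVEC cells, and Fn1 was above Cdh2 in 35 of 46 and 39 of 48. Cdh2 was above Zeb1 in 42 of 46 C10 cells but in 16 of 48 SVEC cells, where the medians of both are 0 and give no order. The order of Vim over Fn1 thus held in most libraries of either line, and that of Fn1 over Cdh2 in fewer. The epithelial genes had medians of 0 CPM per kb in C10 single cells except Cdh1, at 0.0446.

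The comparison of C10 with SVEC single cells asks which of these genes tell the lines apart. Vim was higher in C10 in every test run. Cdh1 was called higher in C10 and Zeb1 higher in SVEC by edgeR and limma but not by DESeq2, and Cdh2 and Fn1 did not pass in edgeR. Cdh1 entered the test only through C10 (52.2% of libraries, against 2.08% in SVEC) and Zeb1 only through SVEC (29.2%, against 13.0% in C10), the line in which each is higher. In edgeR, 5 of the 10 genes passed the filter, which asks for counts in 25% or more of a line's libraries, and 3 of those 5 passed an adjusted p of 0.05, 2 higher in C10 and 1 higher in SVEC. Nothing about the set is read from that count, since the filter picked those 2 genes by the line where they are high. Of all 9303 genes tested 18.9% passed, 14.4% higher in C10 and 4.48% higher in SVEC. Under TMM scaling all genes had a median log2 fold change of 0.35, and 76.2% of the calls were higher in C10. Library totals alone gave 0.01 and 58.7%, with Cdh1, Vim and Zeb1 called in the same directions. On counts simulated for this comparison edgeR called unchanged genes far more often than its adjusted threshold allows, so its adjusted p-values are less firm than they read.

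Vim had a log2 fold change of 1.27 (SE 0.24, edgeR adjusted p = 2.16e-05), or 2.42-fold. It passed in every alternative fit of this comparison, with 0.83 the lowest log2 fold change. The permutation test of log2(CPM + 1) gave a difference of 1.38 and an unadjusted p of 2.0e-05, the smallest it can give. Cdh1 had a log2 fold change of 3.05 (SE 0.46, edgeR adjusted p = 5.10e-07), a value that depends on the prior count because SVEC held a single read. Pooled over libraries, 67 counts in C10 and 1 in SVEC gave a ratio of 19.6, with a counting interval of 3.39 to 784. A permutation test of log2(CPM + 1) (two-sided, unadjusted) gave a difference of 0.59 and p = 2.0e-05. DESeq2 did not call it (adjusted p = 0.373), and at 100000 counts per library too few libraries had a count for it to be tested. Zeb1 had a log2 fold change of -3.12 (SE 0.93, edgeR adjusted p = 0.00908), from a mean of 3.82 ± 13.6 CPM over C10 cells against 37.9 ± 106 CPM over SVEC cells (SD, n = 46 and 48). DESeq2 gave -2.99 and did not call it (adjusted p = 0.121), and the permutation test gave a difference of -1.20 on the log2(CPM + 1) scale with an unadjusted p of 0.0140.

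For Cdh2 the outcome depended on the scale. In edgeR, which compares mean counts, the log2 fold change was 1.13 (SE 0.61, adjusted p = 0.209). In limma on log2(CPM + 1), which compares means of log values, the difference was 3.64 (SE 0.58, adjusted p = 2.95e-07), and 34.6% of all genes were called by that test. A permutation test of the same values (two-sided, 100000 resamples, no adjustment) gave p = 2.0e-05, the smallest it can give. Fn1 had a log2 fold change of 0.91 in edgeR (SE 0.47, adjusted p = 0.185) and 0.51 in limma (adjusted p = 0.564). It passed in DESeq2 alone, at 1.38 (adjusted p = 0.0164). The permutation test of log2(CPM + 1) gave Fn1 a difference of 0.51 and an unadjusted p of 0.455. Pooled over libraries, Fn1 was instead lower in C10, at 774 CPM against 977 CPM in SVEC. The pooled ratio was 0.793 (counting interval 0.782 to 0.803), and 0.627 without the richest C10 library, which held 21.8% of the C10 counts. The remaining 5 genes, Krt7, Krt8, Krt18, Krt19 and Epcam, were too rarely detected to enter the main test.

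**Figure D3:**
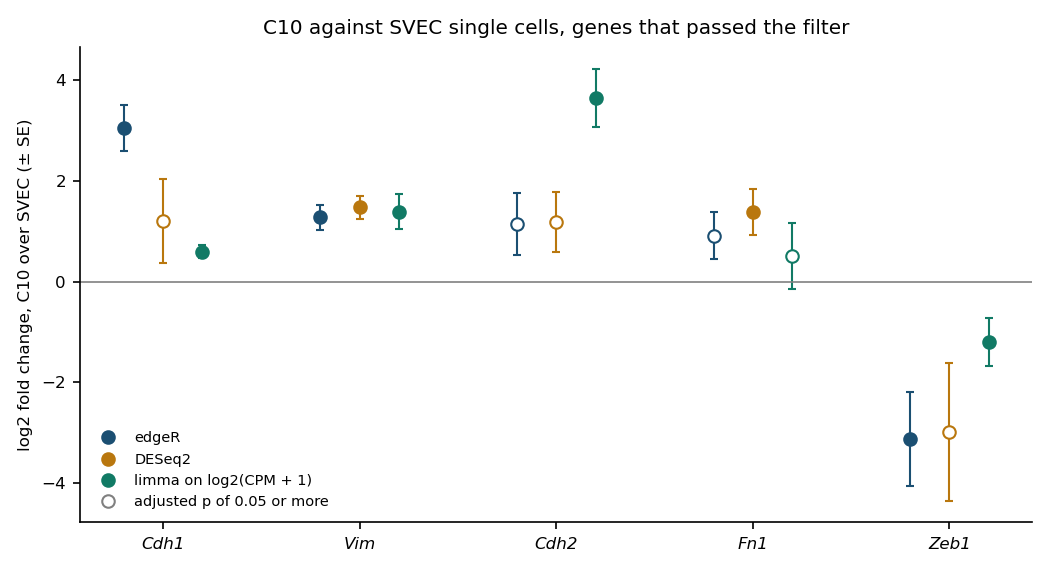
Log2 fold change of C10 over SVEC single cells, with its standard error, for the 5 genes that passed the filter, in edgeR, DESeq2 and limma on log2(CPM + 1). Filled points passed an adjusted p of 0.05. Vim is filled in all 3 tests, Cdh2 in limma alone and Fn1 in DESeq2 alone.

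Other genes of the same programmes were taken from lists. Of 45 further epithelial genes (claudins, desmosome and tight junction genes, epithelial transcription factors) only 6 were detected widely enough to be tested, and 0 passed in edgeR at an adjusted p of 0.05, with a median log2 fold change of -0.01 against 0.35 over all genes. In C10 single cells 21 of the 45 had no count at all, among them Cldn3, Cldn4, Cldn7, Krt5 and Rab25, and in SVEC 31 had none. Of 44 further mesenchymal genes in the files, 29 were tested. In edgeR 7 were higher in C10, 1 was higher in SVEC and 21 did not pass, with a median of 0.41, while limma called 11 and 2. Of all 9303 genes tested, edgeR called 14.4% higher in C10 and 4.48% higher in SVEC. Mmp2, a matrix metalloproteinase gene, had counts in 32 of 46 C10 libraries and none in SVEC, at least 733-fold higher over the group totals (limma log2 difference 4.24). Acta2, the smooth muscle actin gene, had a log2 fold change of 1.53 (edgeR adjusted p = 0.0168), and Lgals1, a galectin gene, one of 1.48 (edgeR adjusted p = 7.56e-19). Prrx1, a mesenchymal homeobox gene, went the other way, with counts in 18 of 48 SVEC libraries and in none of the 46 C10 single cells. Over the single-cell group totals it was at least 1739-fold higher in SVEC, against a floor of 3 counts in C10. In the input series 1 of 6 libraries of 10 C10 cells held Prrx1. The mean of those 6 libraries was 1.23 ± 3.00 CPM (SD), against 43.6 CPM over SVEC cells. Mmp2 passed the filter only through C10 and Prrx1 only through SVEC, the line in which each is higher. Nothing about the list is therefore read from the numbers of calls. The medians did not move with Mmp2 and Prrx1 set at their bounds. Of the fibroblast markers, Dcn (1.51, adjusted p = 0.0226) and Col1a1 (1.05, adjusted p = 0.00404) were higher in C10 in edgeR. Their part in the difference of Vim was not tested.

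Among the genes that hold cadherins to the cytoskeleton, 9 of 23 in the files were tested and 0 passed in edgeR, with a median of -0.06, and limma called 1. Ctnnb1, coding for beta-catenin, had a mean of 150.2 ± 152 CPM over C10 cells and of 199.9 ± 201 CPM over SVEC cells (SD, n = 46 and 48). Of 19 other intermediate filament and linker genes, 8 were tested and 0 passed, with a median of -0.30. Of the endothelial markers 3 were tested: Flt1 was higher in SVEC (-3.96, adjusted p = 7.43e-05) and Tek higher in C10 (2.08, adjusted p = 0.00143) in edgeR, and limma called neither. Of the alveolar markers 3 were tested and 0 called in edgeR, 1 in limma, and no immune marker was tested. Of the other repressors of the Zeb, Snail and Twist families, named here after their values were seen, Twist2 had counts in 9 of 46 C10 and 25 of 48 SVEC libraries. Its edgeR log2 fold change was -2.09 (adjusted p = 0.0507), and limma gave -1.54 (adjusted p = 0.00466). Twist2 passed the filter only through SVEC, where it is higher. Snai1 (-1.50, edgeR adjusted p = 0.0938) and Twist1 (-0.45, edgeR adjusted p = 0.786) did not pass. Snai2 had counts in 28 of 46 C10 and 18 of 48 SVEC libraries (edgeR log2 fold change -0.24, adjusted p = 0.879), and Zeb2 in 18 and 11 (1.06, adjusted p = 0.460).

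The input series asks how the number of C10 cells in a library changes what is seen of each gene. With 10 cells against 1 cell, Epcam, Krt19 and Zeb1 were called higher in edgeR, 3 of the 8 genes tested, where 10.7% of 13645 genes were called. All 3 passed the filter of counts in 50% of a group only through the 10-cell libraries, where they are high, so nothing is read from their number beside that share. Epcam and Krt19 had no count in the 1-cell libraries, so their fitted values have no upper limit. Over the group totals Epcam was at least 302-fold higher and Krt19 at least 15.0-fold higher than 3 counts, but without the library richest in each the bounds were 17.6 and 2.18. Zeb1 rested on 1362 counts against 2, a ratio of 784 with a counting interval of 217 to 6479. Without its richest library, replicate 9 of 10 cells with 831 counts, the ratio was 389, and both counts of the 1-cell group came from 1 library. The adjusted p was 0.0265 for Epcam, 0.0407 for Krt19 and 0.0290 for Zeb1 in edgeR. Without replicate 1 of the 1-cell libraries they were 0.0538, 0.0882 and 0.0592, so none of the 3 calls remained. Exact permutation tests of log2(CPM + 1) with all libraries (two-sided, unadjusted) gave p = 0.0300 for Epcam, 0.0539 for Zeb1 and 0.110 for Krt19. With all libraries DESeq2 called Epcam and Zeb1 but not Krt19, and limma called none of the 3. In libraries of several cells, fewer cells that express a gene and less of its RNA per cell cannot be told apart.

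Vim, Fn1, Cdh1 and Cdh2 were not called with 10 cells against 1 cell in edgeR. Vim had a log2 fold change of -0.88 in edgeR (adjusted p = 0.279), but was called lower by DESeq2 (-2.05, adjusted p = 0.000108). That DESeq2 fit includes replicate 1 of the 1-cell libraries, with 8786 CPM of Vim. The mean of Vim was 3118 CPM over the 1-cell libraries, 2308 CPM without replicate 1 and 1732 CPM over the 10-cell libraries. Cdh2 was present in 4 of 8 libraries of 1 cell and in all 12 of 3 or 10 cells. Its difference on the log2(CPM + 1) scale was 3.22 for 10 cells (exact permutation test, two-sided, unadjusted p = 0.0486). For 3 cells it was 3.61 (same permutation test, unadjusted p = 0.0386). Replicate 1 was among the 1-cell libraries without Cdh2, and both tests include it. In edgeR the log2 fold changes of Cdh2 were -0.51 and 0.18. With 3 cells against 1 cell 0 of the 8 genes tested were called in edgeR, 2 of them at an unadjusted p under 0.05. DESeq2 called Vim and Fn1 lower, again with replicate 1 included. Over all genes 6.35% were called.

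With 10 cells against 3 cells edgeR called 0 of the 8 genes, as it called 0% of all genes, with 1 of the 8 at an unadjusted p under 0.05. Neither DESeq2 nor limma called any of the 8. Fn1 had a log2 fold change of 1.48 (SE 1.11), and its mean log2(CPM + 1) was 9.62 ± 0.90 with 10 cells and 8.15 ± 0.61 with 3 cells (SD, n = 6 and 6; exact permutation test, two-sided, unadjusted p = 0.00866).

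In the input series the spread of Vim and Cdh2 between libraries was narrower with more cells per library. The coefficient of variation of Vim was 0.200 with 10 cells, 0.238 with 3 cells and 0.357 over the 7 libraries of 1 cell other than replicate 1, or 0.774 with it. That of Cdh2 was 0.355, 0.559 and 1.76 (1.91 with replicate 1). For Fn1 it was 0.651, 0.483 and 1.84 (1.99 with it), so that 10 cells did not vary less than 3. The 46 C10 single cells, also 1 cell each, had 0.491 for Vim, 0.863 for Cdh2 and 2.16 for Fn1. The values of the input series describe 6 to 8 libraries, and whether the number of cells set the spread was not tested.

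C10 single cells were also set against the 1-cell libraries of the input series, which are also made from 1 C10 cell each. Vim, Krt18 and Krt8 were called lower in the single cells by edgeR, 3 of the 6 genes tested, where 15.1% of 12303 genes were called. Krt18 and Krt8 passed the filter only through the 1-cell libraries, where they are higher, so nothing is read from that number. The 1-cell libraries were also deeper, with a median of 10157100 counts against 1881700 in the single cells. Any batch between the sets cannot be told apart from the groups. Vim had a log2 fold change of -1.20 (adjusted p = 0.00137), but -0.44 without replicate 1 (edgeR adjusted p = 0.392). Krt18 had -4.50 (adjusted p = 0.0157) and rested on replicate 2, without which it appeared in too few libraries to be tested. Krt8 had -1.32 (adjusted p = 0.0318) from 4 single counts against none, and 0.0599 as edgeR's adjusted p without replicate 1. Without replicate 2 it was 0.0525. Permutation tests of log2(CPM + 1) with all libraries (two-sided, 100000 resamples, unadjusted) gave p = 0.0636 for Vim, 0.0808 for Krt18 and 0.000560 for Krt8. Cdh2 had -0.20 in edgeR but 3.24 on the log2(CPM + 1) scale in limma (adjusted p = 0.0160), with counts in 42 of 46 single cells and 4 of 8 libraries of 1 cell.

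Within lines, the widely detected genes did not rise and fall together from cell to cell. Over the 46 C10 cells Pearson's r of log2(CPM + 1) was 0.35 for Vim and Cdh2 (Spearman 0.21), and -0.01 without the 2 libraries farthest from the median of Vim. It was -0.26 for Vim and Fn1 and -0.11 for Cdh2 and Fn1, and 0.02 for Vim and Fn1 over 48 SVEC cells. Values of a library share its depth, whose correlation with Vim, Cdh2 and Fn1 lay between 0.10 and 0.16 in C10. In SVEC it was 0.04 for Vim and 0.29 for Fn1, and Fn1 there correlated at 0.43 with the number of genes detected (Spearman 0.46). Of the 24 C10 cells with Cdh1, 22 also had Cdh2, where 42 of all 46 had it.

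The genes whose level followed each of these most closely were found among genes counted in 75% or more of a line's single cells, 3225 genes in C10 and 1281 in SVEC, by Spearman's rho over libraries. For Cdh2 in C10 the nearest was Slc24a2, a sodium, calcium and potassium exchanger gene, at 0.81, far from the next, Zfas1 at 0.48. Slc24a2 had counts in 41 C10 cells, all of which also had Cdh2, and in none of the 4 cells without it. In SVEC all 12 cells with Slc24a2 were among the 19 with Cdh2 (rho 0.78). Of the 1-cell input libraries 2 of 8 had Slc24a2 without Cdh2. Among the inputs rho was 0.94 over 8 libraries of 1 cell, 0.94 over 6 of 10 cells and 0.09 over 6 of 3 cells. None of the 4694 stretches of 150 bases in the longest Cdh2 transcript occurs in a transcript of another gene.

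**Figure D4:**
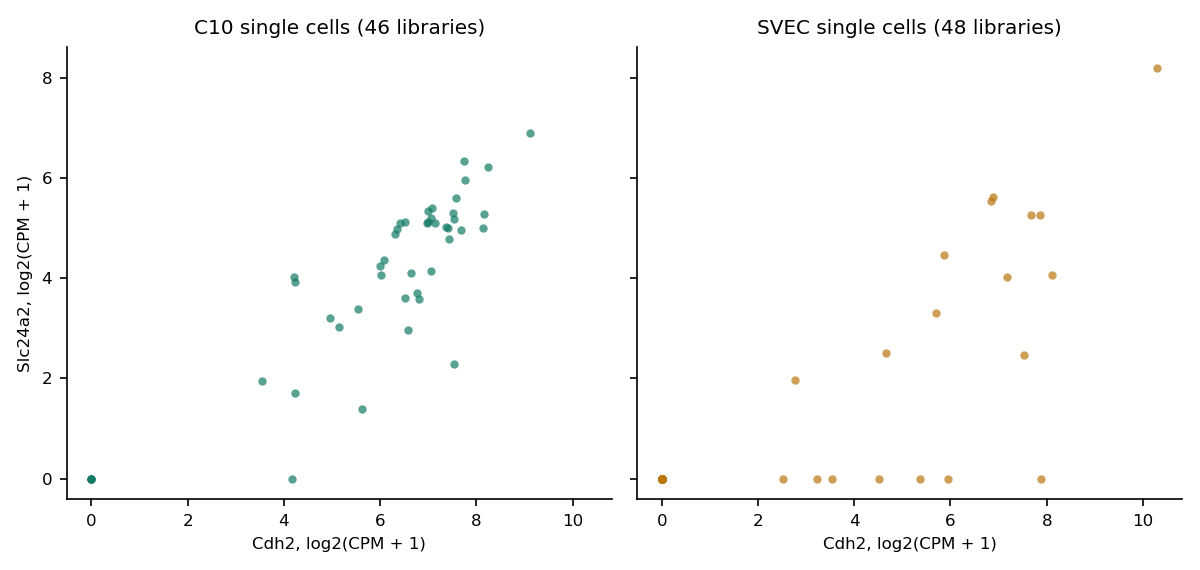
Level of Slc24a2 against that of Cdh2, both as log2(CPM + 1), with 1 point per single-cell library of C10 (left) and SVEC (right); points at the origin overlap. All libraries with counts of Slc24a2 also had counts of Cdh2, 41 in C10 and 12 in SVEC.

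For Fn1 the nearest genes in C10 were Col1a1 (0.62), which codes for a chain of type I collagen, Ergic3 (0.52) and Col3a1 (0.51), for type III collagen. For Vim they were Tpm4, a tropomyosin gene (0.57), Tuba1a, an alpha-tubulin gene (0.55), and Eif6 (0.54). The nearest 1% of genes began at 0.32 for Cdh2, 0.37 for Fn1 and 0.42 for Vim. In SVEC the nearest to Fn1 were Ahnak (0.58), Malat1 (0.51) and Nufip2 (0.49), where the nearest 1% began at 0.40, below the rho of Fn1 with the number of genes detected, and to Vim Foxp1 (0.51), Nmt1 (0.44) and Paics (0.41). No gene was named for a member in both lines.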

How the data were processed

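Full-length cDNA was made from cells of both lines with SMART-Seq chemistry and sequenced as single reads of 150 bases, per the labels' protocols. The authors deposited whole-number read counts per gene symbol, 1 file per library. FastQC, STAR and HTSeq are named in the submitters' processing notes; versions, genome build, annotation and strand are not given in the sources used here. The 5 closing counters (24.5% to 95.9% of reads) were left out. No molecular identifiers are described, so intervals and floors (3 counts) cover counting error only. Nothing in the labels says that replicate libraries came from separate cultures, so p-values measure the spread between these libraries.

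The genes and lists were chosen with earlier results of these data known. Counts were tested with edgeR 4.0.16 (quasi-likelihood F test, TMM) in R 4.3.3, with Benjamini-Hochberg adjustment over all genes, on genes with counts in at least 25% (single cells, and single cells against 1-cell libraries) or 50% (input series, 1 model of 3 groups) of the libraries of a group. Alternatives were DESeq2 1.42.0, limma 3.58.1 on log2(CPM + 1) or with 10 added, library totals, other filters, libraries of at least 100000 counts, thinning to 100000 counts, the share of genes detected as a covariate, libraries left out, permutation tests (SciPy 1.17.1) and a replicate block. The tests were checked on counts simulated for C10 against SVEC, and signs and sizes were recovered. There edgeR, and limma less often, called more unchanged genes than the adjusted threshold allows. Calls of the 10 genes in the main edgeR fits are therefore given beside a permutation test. Some calls of the alternative fits, and the genes of the lists, are given without one. The input series was not simulated. Leaving out replicate 2 of 1 cell and replicate 6 of 10 cells was chosen after seeing the data. Exon lengths, overlaps and shared stretches came from GENCODE M21 (BLAST 2.17.0 for copies), promoters from RefSeq. All 10 genes were named, with up to 3 called genes per list and direction, the 3 nearest genes per widely detected gene (1 of them is not reported here), and other keratins with counts in at least 25% of a group.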

Additional observations from a re-analysis of the deposited data

Results flagged for a closer look

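Dixon's test, which asks whether the highest or lowest of 4 to 10 libraries lies far from the rest, was met by 16 of the 25 sets of 1 gene in 1 group of the input series. About 1 in 20, or 1.25 of 25, would meet it if the values followed a normal distribution, which values with many zeros do not. In each of the 16 it was the highest library that stood apart. Several sets hold counts in only 1 library, which meets the test at any level. The 16 are therefore not read as an excess over 1.25.

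Among the epithelial genes, Krt7 stood at 13.8 CPM in replicate 6 of the 3-cell libraries and at 18.7 CPM in replicate 9 of the 10-cell libraries, with 0 in the other 5 of each group. Krt8 stood at 0.0921 CPM in replicate 10 of 3 cells and 0.0740 CPM in replicate 5 of 10 cells, a single count each, again with 0 in the others. Krt18 reached 422 CPM in replicate 2 of the 1-cell libraries, where the next library held 61.8 CPM, and 36.0 CPM in replicate 5 of 10 cells, where the others held 0. Krt19 was at 4.09 CPM in replicate 1 of 10 cells, against at most 0.296 CPM in the other 5. Cdh1 was at 6.49 CPM in replicate 5 of 3 cells, against at most 0.642 CPM, and at 10.01 CPM in replicate 6 of 10 cells, against at most 0.946 CPM. Epcam was at 3.19 CPM in replicate 1 of 3 cells, against at most 0.499 CPM, and at 73.4 CPM in replicate 6 of 10 cells, against at most 1.74 CPM.

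Among the mesenchymal genes, Vim was at 8786 CPM in replicate 1 of the 1-cell libraries, the library with 538 genes, against 1442 to 3464 CPM in the other 7. Replicate 14 of the 1-cell libraries was highest in both Cdh2, at 320.2 CPM against at most 109.9, and Fn1, at 5747.5 CPM against at most 841. Zeb1 stood at 0.167 CPM, 2 counts, in replicate 10 of 1 cell and at 24.5 CPM in replicate 6 of 3 cells, with 0 in the others of each group.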

How the results depend on the processing

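For C10 against SVEC, no gene of the set changed direction under any alternative fit or in the permutation test. The pooled ratio of Fn1, 0.793, did lie in the other direction. The number called, 3, was 7 with no filter on low counts and 1 with counts asked for in 90% of a group. With no filter Krt7, Krt18, Krt19 and Epcam were called as well, where 5437 of all 18001 genes tested were called. The permutation test of log2(CPM + 1) (two-sided, unadjusted) gave p = 0.108 for Krt7, 0.225 for Krt18, 0.978 for Krt19 and 0.980 for Epcam. Krt19 and Epcam had counts in 1 C10 single-cell library each, so these added calls are not read as differences between the lines. For 10 cells against 1 cell, where 3 were called, 0 were called under limma with 1 or with 10 added, with no filter, with the 90% filter, after thinning, with the detection rate as covariate and without 1-cell replicate 1. For 3 cells against 1 cell DESeq2 called 2 in place of 0. For C10 single cells against the 1-cell libraries, where 3 were called, library totals gave 0, DESeq2 1, limma 1 (0 with 10 added), no filter 6, the 90% filter 0, thinning 1, and leaving out 1-cell replicate 1 or 2 gave 1 each. The cause of these shifts was not tested, apart from filters and left-out libraries, which change what is tested.

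Signs changed only among log2 fold changes that edgeR did not call. For 10 cells against 1 cell Cdh1 (-0.04) was 0.29 with library totals, 0.02 in limma with 1 or 10 added (0.018 and 0.024) and in the permutation test, and 0.058 with no filter. There Cdh2 (-0.51) was 0.18 with library totals, 3.22 in limma and the permutation test, 1.48 with 10 added and 0.76 thinned. It was 1.47 with the covariate and 0.023 without 10-cell replicate 6, and kept its sign without 1-cell replicate 1, at -0.70. Fn1 (-0.78) was 2.02 in limma and the permutation test, 1.57 with 10 added, 0.21 thinned and 1.80 with the covariate. For 3 cells against 1 cell Cdh2 (0.18) was -0.55 in DESeq2 and -0.01 without 1-cell replicate 1 (-0.015), and Fn1 (-2.26) was 0.54 in limma and the permutation test and 0.13 with 10 added. For 10 against 3 cells Cdh1 (0.43) was -0.11 in DESeq2 and -1.43 with the covariate, Cdh2 (-0.68) was 0.20 with the covariate, and Vim (-0.03) was 0.10 with library totals, 0.11 in limma with 1 or 10 added and in the permutation test, 0.15 thinned and 0.28 with the covariate. For C10 single cells against the 1-cell libraries Cdh2 (-0.20) was 1.02 with library totals, 3.24 in limma and the permutation test and 1.75 with 10 added. It was 0.52 under the 90% filter, 1.40 thinned and 0.48 without 1-cell replicate 1. Without 1-cell replicate 2 it kept its sign, at -0.32. There Fn1 (-0.78) was 0.10 with library totals, 0.76 in limma and the permutation test, 0.53 with 10 added and 0.29 thinned.

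Over all genes, the 1754 called between C10 and SVEC became 3223 in limma, 5437 with no filter and 505 under the 90% filter. The 1456 of 10 cells against 1 cell became 384 in limma with 10 added, 48 with no filter, 412 under the 90% filter, 694 thinned, 33 with the covariate and 336 without 1-cell replicate 1. The 866 of 3 cells against 1 cell became 1581 in DESeq2, 121 and 56 in limma, 65 with no filter, 281 under the 90% filter, 451 thinned, 0 with the covariate and 32 without 1-cell replicate 1. The 0 of 10 against 3 cells became 321 in DESeq2, 35 and 9 in limma, 1 thinned and 3 with the covariate. The 1852 of C10 single cells against the 1-cell libraries became 1156 and 896 in limma, 4365 with no filter, 122 under the 90% filter and 846 thinned.

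The labels share replicate numbers but nothing says that a number marks a shared culture or day. Deviations of libraries with the same number had mean correlations of 0.00164 for C10 and SVEC and -0.00357 for 10 and 1 cell. They were 0.0219 for 3 and 1 cell, 0.0162 for 10 and 3 cells and -0.00299 for single cells and 1-cell libraries. In the same order, those of libraries with different numbers were 7.91e-05, 0.000524, -0.00310, -0.00308 and 0.000153. Values this small do not settle whether a number marks a shared culture or day. Own number was the best match for 1 of 46, 0 of 6, 3 of 6, 2 of 6 and 0 of 8 libraries. With a replicate block, 4 genes of the set were called for C10 against SVEC and 0 in each other comparison. Over all genes 3095 were called between C10 and SVEC and 0 in the others. Under the replicate block the log2 fold change of Cdh2 was 3.15 and of Fn1 1.37 for 10 cells against 1 cell, that of Fn1 0.079 for 3 cells against 1 cell, and that of Cdh2 7.12 for single cells against 1-cell libraries. Depth limits the rare genes: 3 counts stand for a median of 1.60 CPM in a C10 and 6.95 CPM in an SVEC single cell.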
